A study of Mus musculus with 10 samples.

Results

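Inward rectifier and ATP-sensitive potassium channel genes were followed in left atrial tissue of adult mice. In the knockout group exon 3 of the T-box transcription factor gene Tbx5 was targeted. The 7 genes are the Kir2 pore subunits Kcnj2, Kcnj12 and Kcnj14, the Kir6 pore subunits Kcnj8 and Kcnj11, and the sulfonylurea receptors Abcc8 and Abcc9. They were taken by gene symbol, under a rule that uses no measured value, from a table of 23337 genes, and all 7 were among the 13191 genes tested. The Tbx5 knockout group (Tbx5-/-) held 6 libraries, 3 female and 3 male, from mice in which a tamoxifen-inducible Cre recombinase under the ubiquitous R26 promoter cut out exon 3 of Tbx5. The control group held 4 libraries, 2 female and 2 male, labelled as wild type (Tbx5 +/+). All animals were of a mixed C57B6 and 129 background. Sample labels put the mice at 8 to 10 weeks of age, whereas the protocol for RNA extraction says 6 to 8 weeks. Tamoxifen was given at 0.167 mg per day for 3 days, with tissue taken 1 week later. The same treatment text, with Cre and tamoxifen, stands on the knockout and the control samples, and nothing says separately whether the controls carried the Cre. The R26 promoter does not restrict the Cre to cardiomyocytes, and the cells in which excision took place were not measured here.

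Inward rectifier channels pass potassium more easily into the cell than out of it. Kir2 subunits form the background current that holds the resting potential of heart muscle cells. ATP-sensitive channels are complexes of Kir6 pores with sulfonylurea receptors, which close when ATP is plentiful and open when energy runs short. In mouse atrial myocytes they are known to be built mainly from Kir6.2 and SUR1, the products of Kcnj11 and Abcc8. Kir6.1 and SUR2, the products of Kcnj8 and Abcc9, are known for the channels of vascular smooth muscle and pericytes, and a splice form of SUR2 also serves ventricular muscle.

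The ATP-sensitive genes lie in neighbouring pairs of a pore and a receptor (GENCODE M21, GRCm38). Kcnj8 (chromosome 6, 142564837 to 142571614, minus strand) is followed by Abcc9 (142587862 to 142702315, minus strand) with 16247 bp and no annotated gene between them. Kcnj11 (chromosome 7, 46093953 to 46100764, minus strand) is followed by Abcc8 (46104523 to 46180033, minus strand) with a gap of 3758 bp. Kcnj14 (45816460 to 45824782, minus strand) lies on the same chromosome, 269170 bp from Kcnj11. Kcnj12 (61022564 to 61071131) and Kcnj2 (111066164 to 111076821) both lie on the plus strand of chromosome 11.

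RefSeq promoter sequence was at hand for 4 of the 7 genes (Kcnj2, Kcnj12, Kcnj8 and Abcc9, GRCm38.p6). The 250 bases before each start are printed so that the chromosomal neighbours Kcnj8 and Abcc9, and the Kir2 genes Kcnj2 and Kcnj12, can be compared. Capitals mark the letters AGGTGT or its reverse complement ACACCT, the core of a T-box site. The Kcnj8 sequence is chr6:142571615-142571864 and that of Abcc9 chr6:142702275-142702524, both on the minus strand. The Kcnj2 sequence is chr11:111065914-111066163 and that of Kcnj12 chr11:61065554-61065803, both on the plus strand. The Kcnj12 sequence precedes its downstream start, since another annotated transcript starts at 61022564. The Abcc9 sequence also precedes a start inside the annotated gene, which reaches to 142702315, so its last bases lie within that gene.
Kcnj8: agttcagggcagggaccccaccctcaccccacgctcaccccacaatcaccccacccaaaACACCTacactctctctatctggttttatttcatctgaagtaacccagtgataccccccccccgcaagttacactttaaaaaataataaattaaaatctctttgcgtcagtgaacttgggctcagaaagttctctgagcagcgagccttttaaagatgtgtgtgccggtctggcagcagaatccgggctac
Abcc9: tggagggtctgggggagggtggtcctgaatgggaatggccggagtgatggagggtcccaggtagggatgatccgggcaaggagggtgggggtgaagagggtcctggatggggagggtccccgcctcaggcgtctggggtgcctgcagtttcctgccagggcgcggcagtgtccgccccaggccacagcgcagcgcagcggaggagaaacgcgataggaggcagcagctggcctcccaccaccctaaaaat
Kcnj2: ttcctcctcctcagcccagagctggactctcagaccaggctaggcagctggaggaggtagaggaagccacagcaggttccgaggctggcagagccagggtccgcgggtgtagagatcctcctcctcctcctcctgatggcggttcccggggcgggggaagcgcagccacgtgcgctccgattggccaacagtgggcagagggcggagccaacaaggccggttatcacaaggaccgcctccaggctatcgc
Kcnj12: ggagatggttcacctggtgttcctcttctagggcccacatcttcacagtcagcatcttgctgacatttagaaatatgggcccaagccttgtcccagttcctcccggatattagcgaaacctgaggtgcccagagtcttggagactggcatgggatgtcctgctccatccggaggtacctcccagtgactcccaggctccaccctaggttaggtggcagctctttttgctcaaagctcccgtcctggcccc
The T-box core was found once, on the antisense strand of Kcnj8 and starting 191 bases before its start site, and in none of the other 3 windows. It occurs on either strand in 11.8% of 32851 promoter windows of the same length. The spelling AGATAA, a form of the site for GATA factors present in 9.99% of windows, was in none of the 4. Nor was the TATA box, spelled TATAAA and present in 12.4% of windows. Other spellings of these sites were not searched, so their absence is not shown. Both strands were searched, and none of the spellings contains another. These are matches of letters and do not show binding.

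Knockout libraries held 5789632 to 7355782 counts and control libraries 5701670 to 7697556. Tbx5 itself, the targeted gene, was higher in the libraries labelled knockout, at 1952 ± 336 normalized counts (SD, n = 6), than in controls, at 939 ± 125 (SD, n = 4). Its log2 fold change was 1.03 ± 0.14 (edgeR quasi-likelihood test, Benjamini-Hochberg adjusted p = 4.78e-05). A count over the whole gene does not measure loss of exon 3, so the directions given here rest on the labels. Of 13191 genes 42.6% passed an adjusted p of 0.05, 21.8% lower and 20.8% higher in the knockout, and the median log2 fold change of all was -0.00. With scaling to library size alone that median was 0.14, and the calls were 3942 higher and 2020 lower, against 2741 higher and 2881 lower with TMM scaling. The sample titles number the libraries by sex, and nothing states that each came from a separate animal, so p-values measure the spread between these samples, which may be technical.

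Among the channel genes, Kcnj2, Kcnj11, Abcc8 and Abcc9 fell in the knockout, Kcnj14 rose, and Kcnj8 and Kcnj12 did not pass the test. That is 4 of 7 lower, against 21.8% of all genes tested. The share of all genes that was higher was 20.8%. With the filter on low counts Kcnj14 was tested only because it was high in the knockout. Nothing is thus read from its count of 1. The sulfonylurea receptor genes changed most among the abundant members, with Abcc8 at 47.9% and Abcc9 at 51.4% of the control mean. In these receptors every knockout library lay below every control library, which held for 2 of 7 members and for 15% of all genes tested. The median log2 fold change of the 7 genes was -0.60. Tissue RNA was measured, so fewer cells of a type and less RNA per cell cannot be told apart.

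**Figure D1:**
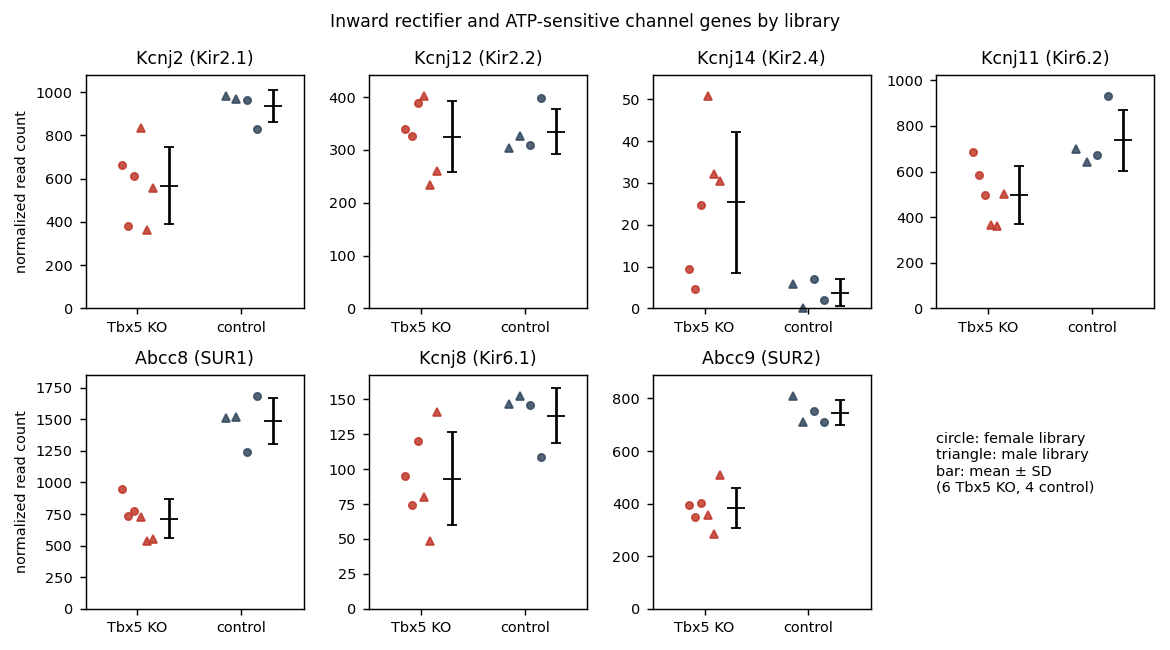
Normalized read count (y axis, linear from 0) of the 7 channel genes in each Tbx5 KO and control library, with circles for female and triangles for male animals and a bar for mean ± SD. Abcc8 and Abcc9 are the genes whose knockout libraries all lie below the controls, whereas those of Kcnj12 span 235 to 402, around the control mean of 335.

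Kcnj2 encodes Kir2.1, the main subunit of the cardiac background inward rectifier. Its normalized counts (the deposited counts divided by a size factor per library) were 662, 380 and 613 in knockout females F1 to F3 and 835, 362 and 557 in knockout males M1 to M3. In controls they were 983 and 967 in males M1 and M2 and 963 and 827 in females F1 and F2. Knockout M1 lay just above control F2, and the other 5 knockout libraries lay below every control. The mean was 568 ± 179 (SD, n = 6) in knockouts and 935 ± 72.3 (SD, n = 4) in controls, so the knockouts also varied more. The log2 fold change was -0.74 ± 0.19 (SE; edgeR adjusted p = 0.00698).

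Kcnj12 encodes Kir2.2, a second Kir2 subunit of heart muscle. It had 339, 326 and 389 normalized counts in knockout females and 402, 235 and 261 in knockout males, against 304 and 327 in control males and 310 and 397 in control females. The groups overlapped on both sides. Its log2 fold change was -0.06 ± 0.15 (edgeR adjusted p = 0.762), with a 95% interval of -0.36 to 0.23. The interval does not reach the estimate for Kcnj2, but the difference between the genes was not tested. With GC and length offsets the log2 fold changes were -0.24 for Kcnj12 and -0.60 for Kcnj2.

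Kcnj14 encodes Kir2.4, described in rat in motor neurons of the brain stem. It was near the detection limit, with raw counts of 11, 5 and 26 in knockout females and 49, 35 and 28 in knockout males. Controls had raw counts of 5 and 0 in males and 6 and 2 in females. The count of 0 in control M2 allows up to 3 counts, or 0.390 CPM (the count scaled to the library total). Knockout F2 lay within the control range and the other 5 knockout libraries above it. The summed level was 3.94 CPM in knockouts (154 counts) and 0.502 in controls (13 counts). The fitted log2 fold change was 2.80 ± 0.73 (edgeR adjusted p = 0.00710), against 1.82 in the authors' deposited table. Kcnj14 passed the filter on low counts only through the knockout libraries, so under that filter it could be tested only because it was high there. Of its 51-base stretches 30.6% also occur in the pseudogene Gm5522, so its count is uncertain by however those reads were assigned. The corresponding share was 0% to 1.91% for the other 6 genes. In the knockouts Kcnj14 made up 0.902% to 7.22% of the summed Kir2 level per length, against 0% to 0.874% in controls.

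Kcnj11 encodes Kir6.2, the pore of the atrial and ventricular ATP-sensitive channel. It had 687, 584 and 497 normalized counts in knockout females and 365, 359 and 501 in knockout males. Control values were 698 and 642 in males and 674 and 932 in females. Knockout F1 overlapped the controls, and the other 5 knockout libraries were below all of them. The mean was 499 ± 127 in knockouts (SD, n = 6) and 736 ± 132 in controls (SD, n = 4), a log2 fold change of -0.58 ± 0.17 (edgeR adjusted p = 0.0152). Without control F2, the highest control, the log2 fold change was -0.43 and did not pass (adjusted p = 0.0817).

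Abcc8, next to Kcnj11 on chromosome 7, encodes SUR1. It had 948, 738 and 777 normalized counts in knockout females and 727, 533 and 553 in knockout males, against 1511 and 1519 in control males and 1241 and 1684 in control females. The groups did not overlap. The mean was 713 ± 154 in knockouts (SD, n = 6) and 1489 ± 183 in controls (SD, n = 4), 2.12-fold lower (log2 fold change -1.08 ± 0.15, edgeR adjusted p = 6.19e-05). The adjusted p stayed at or under 0.00371 in all 24 alternative fits.

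Abcc9 encodes SUR2, whose splice forms SUR2A and SUR2B share the gene and cannot be separated in a count per gene. It had 395, 351 and 401 normalized counts in knockout females and 358, 283 and 511 in knockout males. In controls it had 809 and 710 in males and 753 and 711 in females. The controls lay close together, with a coefficient of variation of 6.23%, and no knockout reached them. The fall was 1.98-fold (log2 fold change -0.98 ± 0.13, edgeR adjusted p = 5.70e-05). The antisense gene 5330439B14Rik overlaps 158 of its 8373 exon bases.

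Kcnj8, next to Abcc9, encodes Kir6.1. It had 95.2, 74.4 and 120 normalized counts in knockout females and 79.9, 48.6 and 141 in knockout males. Control values were 147 and 152 in males and 146 and 109 in females. Knockouts F3 and M3 lay inside the control range and the other 4 below it. The log2 fold change was -0.60 ± 0.23, and its edgeR adjusted p of 0.05004 fell just short of the threshold of 0.05. In the authors' deposited table the log2 fold change was -0.54 with an adjusted p of 0.0492. It passed in 10 of 24 alternative fits, and the 24 gave log2 fold changes of -1.12 to -0.42 and adjusted p of 0.00139 to 0.195. Those that passed include the fits with a replicate block, in which knockouts F3 and M3 do not inform the genotype effect. Among the fits that left out a single library Kcnj8 passed without control F2 (adjusted p = 0.0471), knockout F3 (adjusted p = 0.0370) or knockout M3 (adjusted p = 0.0122).

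Knockout M2 had the lowest normalized count of the 6 knockouts in 6 of the 7 genes, all but Kcnj14. The same library had the lowest sum of atrial cardiomyocyte markers (87625 normalized counts, against 98805 to 202783 in the other knockouts) and of cardiomyocyte markers (432453, against 438276 to 591609). The part of these in its channel values was not tested. Without knockout M2 the log2 fold changes were -0.64 for Kcnj2, -0.50 for Kcnj11, -1.01 for Abcc8 and -0.91 for Abcc9, and all 4 still passed (largest adjusted p = 0.0279).

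Levels were compared between genes as CPM per kb of annotated exon. In knockouts the order of means was Kcnj11 (21.7 ± 5.32), Kcnj12 (19.0 ± 4.13), Kcnj2 (16.8 ± 5.55), Abcc8 (14.1 ± 3.07), Abcc9 (7.33 ± 1.34), Kcnj8 (5.85 ± 2.00) and Kcnj14 (1.51 ± 1.03; SD, n = 6). In controls it was Kcnj11 (29.6 ± 4.99), Abcc8 (27.3 ± 3.56), Kcnj2 (25.5 ± 2.27), Kcnj12 (18.0 ± 2.25), Abcc9 (13.2 ± 0.804), Kcnj8 (8.06 ± 1.27) and Kcnj14 (0.201 ± 0.175; SD, n = 4). Among the knockouts only Abcc8 and Abcc9 stood apart as neighbours in this order, and the library ranges of all other neighbours overlapped. Among the controls the ranges of Kcnj11, Abcc8 and Kcnj2 overlapped each with the next, and those of all later neighbours were separate. With the longest transcript as the length, Abcc8 was at 23.5 in knockouts and 45.3 in controls, so its rank depends on which transcripts are present.

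**Figure D2:**
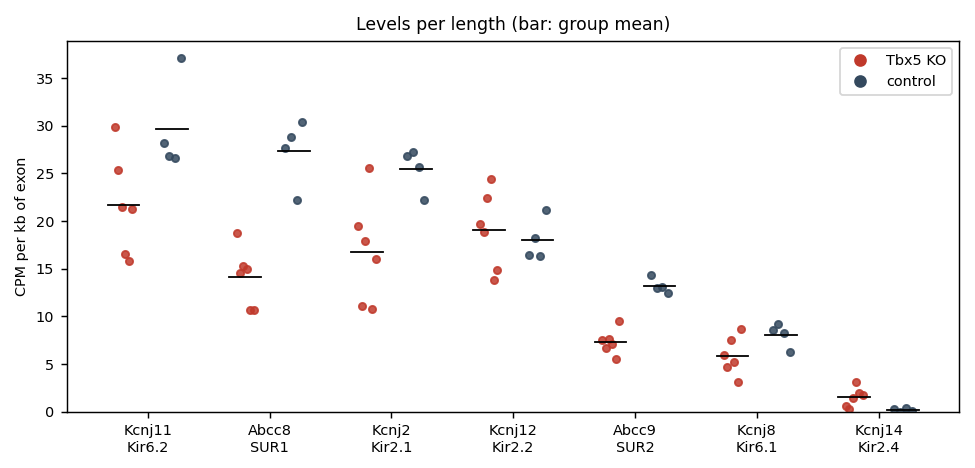
CPM per kb of exon (y axis) of the 7 genes, ordered by control mean, in Tbx5 KO (red) and control (dark blue) libraries, with a bar at each group mean. The order of the controls runs from Kcnj11 at 29.6 to Kcnj14 at 0.201; in the knockouts Kcnj12 lies above Kcnj2 and Abcc8.

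The balance between subunits was described within each library, which removes differences in depth but not in bias by GC content and length. With GC and length offsets the log2 fold changes were -0.60 for Kcnj2 and -0.24 for Kcnj12, against -0.74 and -0.06 without. Those of Abcc8, Abcc9, Kcnj11 and Kcnj8 were -1.08, -0.86, -0.71 and -0.78, against -1.08, -0.98, -0.58 and -0.60 without. Kcnj2 over Kcnj12, per length, was 0.589 to 1.08 in knockouts and 1.05 to 1.63 in controls, and control F2 alone lay within the knockout range. The receptors over the Kir6 pores (Abcc8 and Abcc9 over Kcnj11 and Kcnj8) ranged from 0.676 to 1.02 in knockouts and from 0.990 to 1.16 in controls. The mean of this ratio was 0.796 ± 0.125 in knockouts (SD, n = 6) and 1.08 ± 0.0896 in controls (SD, n = 4). Knockout M1 was the knockout that reached the control range. For the other pairs the groups overlapped widely. Abcc8 over Abcc9 averaged 1.97 ± 0.457 in knockouts and 2.08 ± 0.325 in controls, and Kcnj11 over Kcnj8 averaged 4.01 ± 1.32 in knockouts and 3.84 ± 1.41 in controls. These ratios are descriptions without a test.

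**Figure D3:**
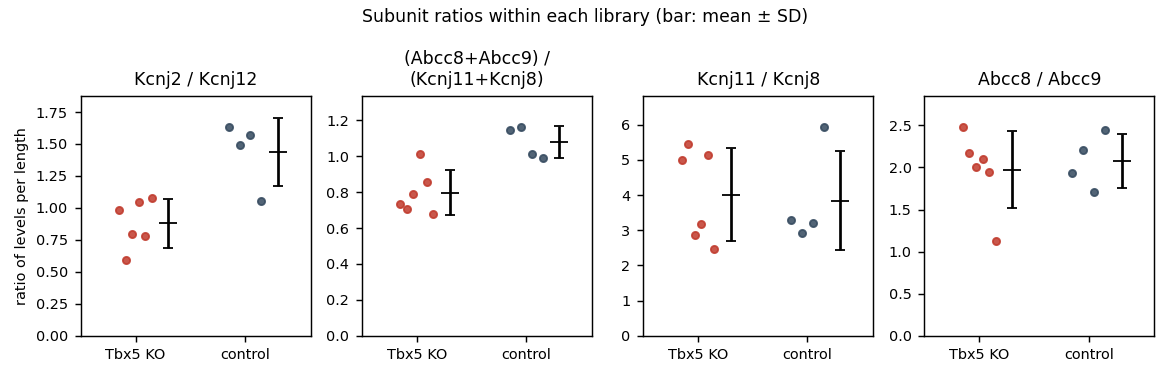
Ratios of levels per length (y axes, linear from 0), without GC and length offsets, in each Tbx5 KO and control library, with mean ± SD. Kcnj2 over Kcnj12 and receptors over pores are lower in knockouts, at means of 0.880 and 0.796 against 1.44 and 1.08 in controls, while the groups overlap widely for Kcnj11 over Kcnj8 and Abcc8 over Abcc9.

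Markers of the cells in the tissue were set beside these genes. For Kcnj8 and Abcc9, the summed level of 11 pericyte markers was 7424 to 8394 normalized counts in knockouts and 7093 to 8471 in controls. Of these 3 rose (Pdgfrb, Cspg4 and Mcam), 3 fell (Vtn, Steap4 and Art3) and 5 did not pass, and none was at 0. These counts are near the 20.8% higher and 21.8% lower of all genes tested. The most abundant over all 10 libraries were Art3, Rgs5 and Mcam. Art3 averaged 3290.4 ± 479 normalized counts in knockouts and 4087 ± 221 in controls, so it weighs most in the sum. The summed level in knockouts was 99.5% of the control mean. Abcc9 was at 51.4% and Kcnj8 at 67.4% of theirs. The part of pericytes in these values was not tested. Of 8 smooth muscle markers 4 rose and none fell, with sums of 2732 to 4239 in knockouts and 2026 to 2353 in controls.

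For the genes of heart muscle, the sum of 12 cardiomyocyte markers was 432453 to 591609 in knockouts and 717640 to 910816 in controls. Its members did not move together, since 5 rose, 3 fell and 4 did not pass, with a median log2 fold change of 0.01. Myh6, a cardiac myosin heavy chain, averaged 138013 normalized counts in knockouts and 175000 in controls. Ttn, the giant sarcomere protein titin, averaged 135951 in knockouts and 448113 in controls. The mean of the sum was 510833 in knockouts and 832023 in controls, so Ttn makes up most of its fall. Actc1, cardiac actin, averaged 61502 in knockouts and 40940 in controls. All 8 tested atrial cardiomyocyte markers fell, with sums of 87625 to 202783 in knockouts and 338716 to 390288 in controls and a median log2 fold change of -2.13. Among them Nppa, Myl7 and Myl4 were the most abundant in controls, and the right atrial gene Bmp10 was near 0 in both groups, at 2.54 normalized counts in knockouts and 2.55 in controls. The part of cell makeup in the falls of the channel genes was not tested.

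**Figure D4:**
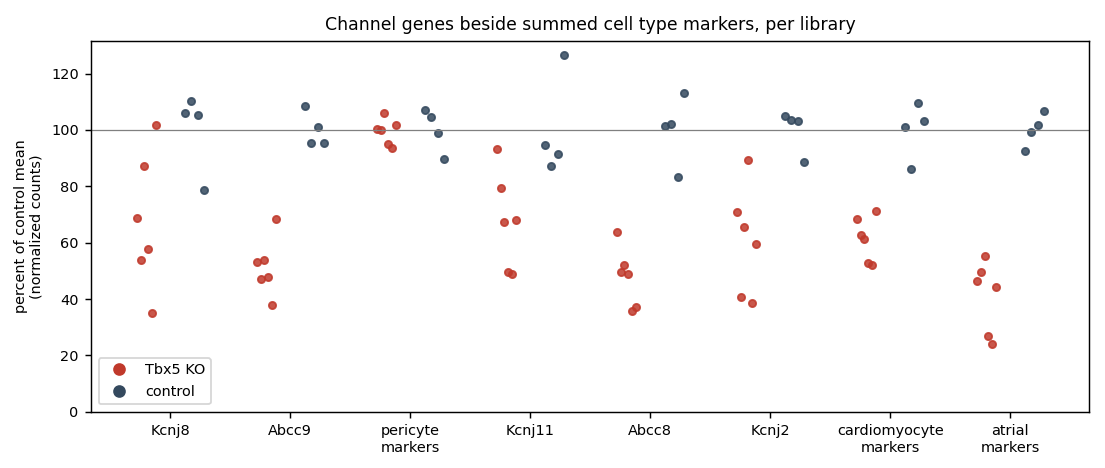
Normalized counts as percent of the control mean (y axis) for channel genes and for summed pericyte, cardiomyocyte and atrial marker lists in each Tbx5 KO (red) and control (dark blue) library. The pericyte sum lies at 93.7% to 106% in knockouts, Abcc9 lies at 38.0% to 68.4% and the atrial sum at 23.9% to 55.4%. Ttn makes up most of the fall in the cardiomyocyte sum.

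Other cell type lists are given beside the 20.8% of all genes tested that were higher and the 21.8% that were lower. Of 12 macrophage markers 11 were tested, and these 11 rose (sums 9047 to 13693 in knockouts and 4189 to 5763 in controls). Of 12 fibroblast markers 8 rose and 2 fell (85223 to 116966 in knockouts and 58641 to 63219 in controls), and of 12 endothelial markers 4 rose and 2 fell (14438 to 16300.2 in knockouts and 11879 to 13727 in controls). Of 5 endocardial markers 3 rose and 2 fell, and of 5 tested ventricular markers 2 rose and none fell, with Irx4 at 0. Of 7 epicardial markers 1 rose, of 4 tested nerve and glia markers 1 rose and 3 fell, and the 1 tested adipocyte marker, Cfd, fell. Sums of the nerve and glia markers, relevant to Kcnj14, were 75.7 to 134 in knockouts and 149 to 208 in controls.

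Of the other 10 inward rectifier genes, 4 were abundant enough to test. Kcnj3 and Kcnj5, which encode the acetylcholine-activated channel of the atrium, fell to 389 ± 93.1 and 503 ± 109 normalized counts in knockouts, against 2655 ± 379 and 2394 ± 496 in controls. Their log2 fold changes, -2.80 ± 0.16 and -2.28 ± 0.17, were larger in size than those of any Kir2 or Kir6 gene that fell. Kcnj15, which encodes Kir4.2, rose to 215 ± 99.5 in knockouts, against 43.0 ± 8.41 in controls (log2 fold change 2.30 ± 0.33, edgeR adjusted p = 9.12e-05). Kcnj13 did not pass (log2 fold change -0.60 ± 0.36, adjusted p = 0.191). Kcnj4, Kcnj6, Kcnj9, Kcnj10 and Kcnj16 averaged 0.305 to 3.78 normalized counts in knockouts and 0.212 to 3.13 in controls, and Kcnj1 had no count.

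Genes of proteins that anchor or carry these channels moved in both directions. Of 13 tested scaffold and trafficking partners 3 fell, 3 rose and 7 did not pass, with a median log2 fold change of -0.15. These shares are near those of all genes tested (21.8% lower and 20.8% higher). Ank2, the ankyrin-B that binds Kir6.2, fell to 851 ± 107 normalized counts in knockouts, against 1473 ± 123 in controls. Dlg1 (SAP97, a scaffold that binds Kir2 channels) fell to 503 ± 49.8 in knockouts, against 753 ± 50.7 in controls. The filamin gene Flna rose to 6529 ± 893 in knockouts, against 3321 ± 401 in controls. Cav3, muscle caveolin, rose to 685 ± 91.2 in knockouts, against 383 ± 24.1 in controls. Flna and Cav3 had log2 fold changes of 0.95 and 0.81, and Ank2 and Dlg1 of -0.81 and -0.60 (edgeR adjusted p at most 0.000170 for these 4).

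Of 11 genes that supply the lipid PIP2, which Kir channels need to open, or that sense energy state, 3 fell, 2 rose and 6 did not pass, with a median log2 fold change of -0.02, again near the shares of all genes tested. Prkaa2, a catalytic subunit of the AMP-activated kinase, fell to 958 ± 107 normalized counts in knockouts, against 2175 ± 234 in controls. Rapgef4 (Epac2, a cyclic AMP sensor that binds SUR1) fell to 66.3 ± 11.2 in knockouts, against 115 ± 25.0 in controls. Pi4ka, a phosphatidylinositol kinase on the route to PIP2, fell by 0.36 on the log2 scale. Ckb, brain creatine kinase, rose by 0.53. The adjusted p of these 4 ran from 2.16e-06 to 0.0146 (edgeR).

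**Figure D5:**
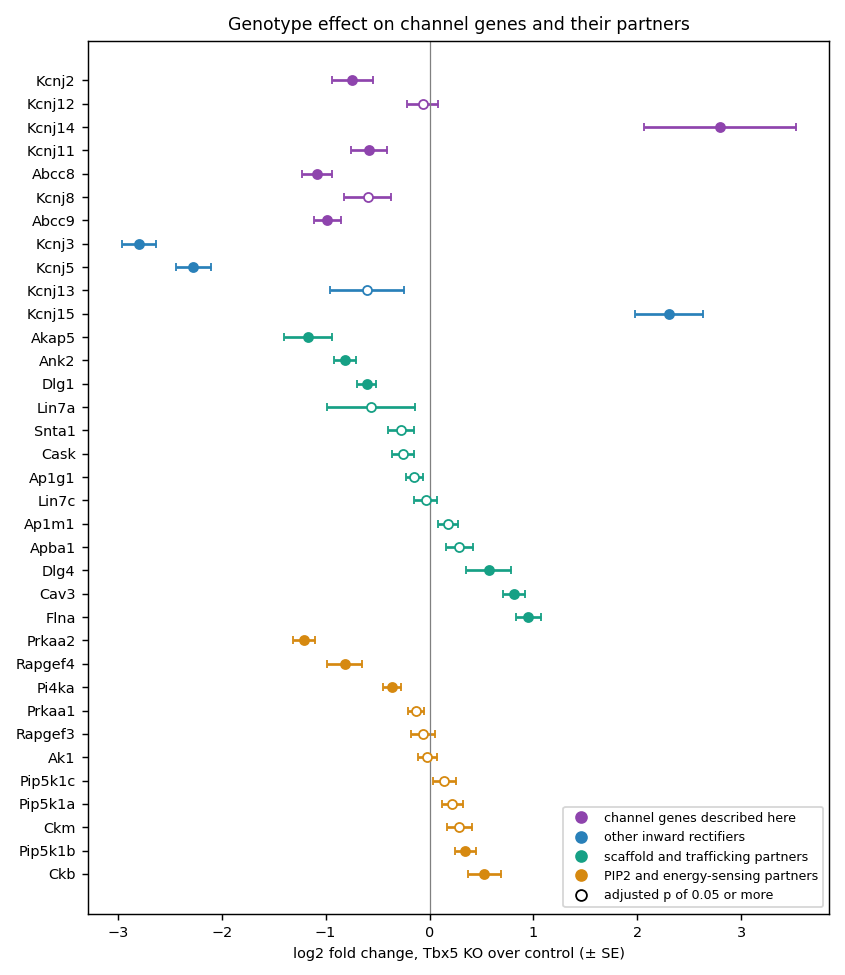
Log2 fold change of Tbx5 KO over control with its standard error (x axis) for the 7 channel genes, other inward rectifiers and partner genes, with filled points for an adjusted p under 0.05. Kcnj3 at -2.80 and Kcnj5 at -2.28 lie left of all other genes shown, and Kcnj14 at 2.80 has the widest error.

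The response of the 7 genes was also examined by sex. No member passed the test of a difference in genotype effect between females and males (edgeR interaction; 0 had an unadjusted p under 0.05, and DESeq2 called 0), where 0.205% of all genes did. The largest gap among the abundant members was in Abcc8, with a log2 fold change of -0.85 ± 0.15 in females and -1.33 ± 0.18 in males (female minus male 0.49 ± 0.25, edgeR adjusted p = 0.724). No member differed between the sexes with genotype in the model, where 0.0152% of all genes did. At an unadjusted p under 0.05 there were 2, Kcnj11 and Kcnj14, and DESeq2 called 0. Kcnj11 was higher in females than in males in both groups, at a mean of 589 against 408 normalized counts in knockouts and 803 against 670 in controls (log2 0.43 ± 0.13, edgeR adjusted p = 0.630). Kcnj14 ran the other way among knockouts, at 12.9 in females and 37.8 in males. It passed the filter on low counts only through the knockout libraries, and did not pass with females alone. Nothing is therefore read from its difference between the sexes. Each sex had 2 control libraries, which limits the precision of these differences. Over all genes tested, edgeR called 2 genes higher in females and 0 lower, and DESeq2 called 17 higher and 13 lower. With edgeR no gene thus marked the male libraries, and the comparisons by sex rest on the labels.

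Genes with the most similar pattern were sought among 9635 others, by the root mean square difference in log2 CPM from the control mean over the 10 libraries. This measure includes the genotype effect, so genes of like fold change rank near each other, whatever cells they come from. The nearest to Kcnj8 was Steap4, at 0.18, followed by Acad11 and Cdnf. Steap4 is on the pericyte list, where 3 markers fell, Steap4 among them, and 3 rose. Nearest to Abcc9 were Fam135a (0.07), Aldh1b1 and Zfp949, and nearest to Abcc8 were Slc26a6 (0.16), Fry and Lpin1. Kcnj11 was closest to Palm (0.13), Cdk5rap1 and Naa16, and Kcnj2 to Cpeb3 (0.15), Zfp536 and Slc2a12. Kcnj12 was closest to Zdhhc1 (0.12), Gtf2ird1 and Mul1. The chromosomal neighbours were not each other's nearest genes. Their log2 fold changes differed in size, at -0.60 for Kcnj8 and -0.98 for Abcc9, and -0.58 for Kcnj11 and -1.08 for Abcc8. The measure counts that gap and counting noise as distance, and whether neighbours vary together was not tested. Abcc9 ranked 231 for Kcnj8, at 0.35, and Kcnj11 ranked 596 for Abcc8, at 0.45, while Abcc9 ranked 110 for Abcc8, at 0.32. In the other direction Kcnj8 ranked 680 for Abcc9, Abcc8 ranked 2375 for Kcnj11, and Abcc8 ranked 516 for Abcc9.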

How the data were processed

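RNA sequencing of left atrial tissue gave single-end reads of 51 bp in 10 libraries, per the labels' protocols, which name both an mRNA kit and ribosome-depleted total RNA. The authors worked on mm10 and name TopHat2 2.0.11, featureCounts, FastQC and DESeq2, per the submitters' processing notes. For the gene annotation, strand setting and multi-mapping reads the choice is not given in the sources used here. The authors deposited raw counts per gene and library, per the file headers. The deposited normalized signal is the count divided by a size factor per library, as checked on the values. The deposited log2 fold change, its linear fold (a ratio), test score, p-value and adjusted p-value are the authors' own comparison, per the file headers.

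Here edgeR 4.0.16 in R 4.3.3 was run on all genes kept by filterByExpr (TMM scaling, quasi-likelihood F-test, Benjamini-Hochberg adjustment at 0.05), on all 10 libraries without covariates. The standard error is the absolute log2 fold change over the square root of F. Sex and its interaction with genotype were fitted likewise. The functions were tested on simulated data. Alternatives were RLE, upper-quartile and library-size scaling, DESeq2 1.42.0, limma-voom (limma 3.58.1), no filter, at least 50 counts in 4 libraries, sex as covariate, a replicate block, each sex alone, GC and length offsets, control F1 and knockout M3 left out together, and each library left out. Levels per length use the union of GENCODE M21 exons (GRCm38, also called mm10). Intervals and floors cover counting error or the fit only. Named genes are the 7 members, up to 4 genes per partner list by smallest adjusted p, the most abundant of each marker list that bears on a member, and the 3 most similar genes per member with a mean of at least 50 normalized counts. The pericyte markers Pdgfrb, Cspg4, Vtn and Steap4 were named after their values were seen. A gene of the partner lists is not reported here. The members and lists were chosen with earlier results of these data known.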

Additional observations from a re-analysis of the deposited data

Results flagged for a closer look

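In 14 sets (7 genes in each of the groups) the highest and lowest library were compared with the rest of their own group, and 2 sets had a library apart. Both were control F2, the lowest control, with 827 normalized counts of Kcnj2 (the other controls lay between 963 and 983) and 109 of Kcnj8 (the others between 146 and 152). Chance marks about 1 in 20 such sets. Without control F2, Kcnj2 had a log2 fold change of -0.77 and Kcnj8 of -0.67, and Kcnj8 then passed the threshold (edgeR adjusted p = 0.0471).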

How the results depend on the processing

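Abcc8 and Abcc9 kept their direction and call in all 24 alternative fits. Kcnj14 was tested in 18 and passed in them. The fit without a filter tests it at any knockout level (log2 fold change 2.83, edgeR adjusted p = 0.00370). In the others its knockout counts decide whether it is tested, so those passes say nothing of its stability. Kcnj14 did not pass the filter in the other 6 (the stricter filter, females alone, and without knockout F3, M1, M2 or M3). Kcnj2 passed in 23 and missed with males alone (-0.74, adjusted p = 0.120). Kcnj11 passed in 23, with -0.70 to -0.43 when single libraries were left out. Kcnj12 never passed and changed sign with library size only (0.076) and with single libraries left out (-0.12 to 0.052). Its lowest values were -0.24 with GC and length offsets and -0.28 with the replicate block as well. Kcnj8 passed with DESeq2 (-0.58), limma-voom (-0.68), at least 50 counts in 4 libraries (-0.59), without both control F1 and knockout M3 (-0.72) and with GC and length offsets (-0.78, on 11973 genes, 90.8% of those tested), and ranged from -0.75 to -0.46 with single libraries left out. The cause was not tested.

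The replicate block used the labels M1, M2, F1 and F2 that the groups share. Deviations of libraries with the same label correlated at -0.13 to 0.17. No comparison with libraries of unlike labels is given, so this does not settle whether the labels share more than a number. With the block, 5411 genes passed, against 5622, and Kcnj8 passed at -0.94 (adjusted p = 0.00447), or -1.12 with the offsets as well. Knockouts F3 and M3 have no control of the same label, so with the block they do not inform the genotype effect. For Kcnj8 these are the knockouts that lay inside the control range.

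With males alone 2061 genes passed. Single libraries left out gave 4709 to 6085. The interaction called 27 genes, 80 with DESeq2, and 7 (without control F2) to 77 (without knockout M3) with single libraries left out. The sex difference called 2, 30 with DESeq2 and 0 to 6. With single libraries left out, uncalled interaction values crossed 0 for Kcnj2 (-0.22 to 0.38), Kcnj12 (-0.10 to 0.33) and Abcc9 (-0.14 to 0.31), and uncalled sex differences for Kcnj2 (-0.23 to 0.081), Kcnj8 (-0.21 to 0.20) and Abcc9 (-0.12 to 0.12). With the longest transcript as length, levels were 34.7 for Kcnj11 in controls, 23.5 and 45.3 for Abcc8 in knockouts and controls, and 14.7 for Abcc9 in controls. Depth limits Kcnj14, at 0 to 49 counts per library.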
